A study of Mus musculus with 23 samples.

Results

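The genes described here are 38 receptors, co-receptors, adaptors, kinases, transcription factor subunits and inhibitors of the Toll-like receptor and NF-kB pathway. A fixed list of gene symbols named them, and that list was chosen with earlier results of these data known. All 38 were among the 11548 genes of the table for naive B cells, and 37 were among the 10574 genes of the table for cultured cells, where Tlr9 had no entry. The libraries hold RNA of B cells from mouse spleen after targeting of Irf8 with 1 of 2 guide RNAs. Irf8 encodes an interferon regulatory factor, a transcription factor that shapes B cell and myeloid development. Cells labelled IRF8 KO were sorted as Thy1.1+ and carried guide 1 or guide 2, and cells labelled IRF8 WT were sorted as Thy1.1- and carried none. Naive B cells (CD11b-, F4/80-, Thy1.2- and B220+) received no treatment and gave 12 libraries, 3 WT and 3 KO in the arm of each guide, with the letters A to C. Cultured cells gave 11 libraries, in which KO meant guide 1 and the m-numbers ran from m1 to m3. Naive cells had been kept for 72 hours with the cytokines IL-2 (20 ng/ml) and IL-5 (5 ng/ml) and with LPS, whose label reads 20 mg/ml, and were then sorted as activated B cells (GL7+ and CD138-, 3 WT and 3 KO) or as plasmablasts (CD138+, 2 WT and 3 KO). The cell type label of the CD138+ cells reads plasma cell. The ages of the mice, the way the guide was delivered and whether the libraries of a group came from separate mice are not given in the sources used here, so p-values measure the spread between these libraries. A control guide is not among these groups, and the loss of Irf8, the presence of a guide and the Thy1.1 gate cannot be told apart.

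Toll-like receptors recognise microbial products at the cell surface or in endosomes and pass the signal through the adaptors Myd88 and Ticam1 to the IRAK and TRAF proteins, the kinase Map3k7 and the IKK complex, which marks inhibitors of the IkB family for destruction and so frees NF-kB dimers to enter the nucleus. B cells carry these receptors beside the antigen receptor, and LPS, the ligand of the Tlr4 and Ly96 complex, is a classical mitogen of mouse B cells that drives them towards antibody secretion. Several inhibitors, among them Nfkbia, Nfkbie and Tnfaip3, are themselves targets of NF-kB, which closes a negative feedback loop.

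Values are reads per kilobase of gene, scaled to the number of reads assigned in the library (RPKM), as deposited. Reads per library, estimated from the smallest steps between values, numbered 14500000 to 22200000 in naive libraries and 4320000 to 26900000 in 10 of the 11 cultured ones. The plasmablast KO library m3 held about 51300 reads, with a median of 2 and at most 11 reads on each of the 37 genes, and 7 of them were listed at 0. In the activated pair m3, the library labelled KO had a Thy1 level of 0.093 RPKM and an Irf8 level of 92.4, and the library labelled WT had 25.7 and 60, so that both went against their labels. Cultured comparisons are therefore given with all libraries and also without the pair and the plasmablast KO library m3, called the 3 doubtful libraries below. No analysis left out the pair alone, and all cultured groups shared an estimate of the spread. Naive KO guide 1 library A also stood apart, with 1405 genes listed at 0 against 66 to 291 in the other naive libraries. It was the lowest of the 12 naive libraries for 10 of the 38 genes and the highest for 9, which compares with 34.4% and 29.5% of all genes tested. Irf8 itself was lower in naive KO than in naive WT (log2 difference -0.61, SE 0.08, adjusted p = 0.00412). With guide 2 alone the difference was -0.77 (adjusted p = 0.0427), and with guide 1 alone it was -0.46 and not called (adjusted p = 0.0703), although the 3 KO libraries of guide 1 (59.5 to 77.7 RPKM) lay below the 3 WT libraries of their arm (93.3 to 98 RPKM). Thy1 was at 8.88 to 22.1 RPKM in naive KO and at 0 to 0.052 in 5 of the 6 naive WT libraries, but at 4.93 in WT library A of the first arm. The labelled cell types were checked against markers. B cell markers were high in every library. Sdc1, the gene of CD138, was at 27.5 to 34.1 RPKM in the 4 deep plasmablast libraries and 3.03 in KO m3. In activated cells it was at 0.226 to 0.79. No neutrophil marker was listed in either table, but some markers of other cell types were. Of 8 T cell markers, 2 were listed in each table, with Lck at 15.1 to 31.6 RPKM in naive libraries. Lck was at 53.9 in plasmablast KO m3, 0.246 to 1.02 in the other plasmablasts and 3.41 to 5.04 in activated cells. Summed natural killer cell markers were at 0.931 to 14.5 in naive libraries. Flt3, a dendritic cell marker, was at 8.38 to 22.2 in activated cells. Prdm1, a driver of plasma cell fate, did not separate the cultured groups, at 56.7 to 94.6 RPKM in activated cells and 69.6 to 79.8 in the 4 deep plasmablast libraries.

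Promoters of 3 of the inhibitors are shown, chosen from those called lower in plasmablasts than in activated B cells once the doubtful libraries were left out. The windows are the 250 bases before an annotated RefSeq start on GRCm38.p6, in the direction of the gene. Capitals mark matches to GGG and CC with any 5 bases between them, a general form of the NF-kB binding motif, searched on both strands with overlapping matches counted. The Nfkbia window lies at chr12:55492648-55492897 on the minus strand, that of Nfkbie at chr17:45555450-45555699 on the plus strand and that of Tnip1 at chr11:54962941-54963190 on the minus strand.
Nfkbia: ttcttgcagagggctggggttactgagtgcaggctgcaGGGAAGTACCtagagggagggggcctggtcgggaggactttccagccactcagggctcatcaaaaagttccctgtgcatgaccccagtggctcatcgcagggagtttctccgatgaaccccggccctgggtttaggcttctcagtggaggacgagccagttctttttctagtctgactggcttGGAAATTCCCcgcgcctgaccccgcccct
Nfkbie: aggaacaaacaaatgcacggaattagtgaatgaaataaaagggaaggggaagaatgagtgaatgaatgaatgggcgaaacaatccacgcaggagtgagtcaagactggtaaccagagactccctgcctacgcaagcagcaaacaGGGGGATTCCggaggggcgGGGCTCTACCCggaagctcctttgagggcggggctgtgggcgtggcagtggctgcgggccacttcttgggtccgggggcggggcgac
Tnip1: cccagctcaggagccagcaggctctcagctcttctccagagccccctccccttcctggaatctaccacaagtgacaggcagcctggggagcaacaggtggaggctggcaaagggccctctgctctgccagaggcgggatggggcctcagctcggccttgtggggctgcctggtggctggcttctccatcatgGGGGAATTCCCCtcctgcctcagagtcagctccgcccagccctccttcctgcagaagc

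RefSeq promoters were found for 28 of the 38 genes, with 42 windows among them. This form was in 66.7% of these windows and in 20 of the 28 genes, and in 45.8% of the 32851 promoter windows of all genes. The genes with it also include Tirap and Irak1, called higher in plasmablasts in both labels without the doubtful libraries. Rela, Chuk and Traf6, called in neither label, have it too. A form of the interferon-stimulated response element, GAAA repeated after a gap of any 2 bases, was in 4.76% of the windows (Myd88 and Tlr6) and in 2.98% of all windows. The composite form of GGAA and GAAA with any 2 bases between them, at which an ETS factor and Irf4 or Irf8 can bind together, was in 0 of the 42 windows and in 2.3% of all windows. A match is a description of the letters in the window and was not tested for binding or for a link to the levels.

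In naive WT B cells the endosomal chaperone Unc93b1, which carries nucleic acid-sensing receptors from the endoplasmic reticulum, had the highest mean of the 38 genes, 290 RPKM, above 99.7% of all listed genes. It was followed by Ly86, the partner of the surface protein Cd180 (211 RPKM), by Nfkbia, the IkB-alpha inhibitor (195 RPKM), and by Nfkbid, a nuclear IkB protein (107 RPKM). Nfkb2, which encodes the p100 precursor of the non-canonical pathway, came next at 81.5 RPKM. Unc93b1 was above the others in every WT library (264 to 316 RPKM), while the ranges of Ly86 (185 to 225) and Nfkbia (152 to 232) overlapped, as did those of Nfkbid (85.3 to 115) and Nfkb2 (72.0 to 89.1). Among the receptors Tlr1, which pairs with the lipopeptide receptor Tlr2, was the highest at 37.9 RPKM. Tlr6 (9 RPKM), Tlr4 (6.15), Tlr7 (4.04), a sensor of single-stranded RNA, and Tlr9 (1.47), a sensor of unmethylated DNA, were lower in that order, and the library ranges of Tlr6 and Tlr4 overlapped, as did those of Tlr4 and Tlr7. Tlr1 and Tlr6 are close paralogs, so that reads could be shared between them in the authors' counting. Of the adaptors, Scimp (19.4 RPKM) and Myd88 (16.5) were highest and Ticam2 (2.37) lowest. Tlr9, Ticam2, Tab2, Ikbkg and Tlr7 had the 5 lowest means of the 38 genes, down to 1.47 RPKM.

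**Figure D1:**
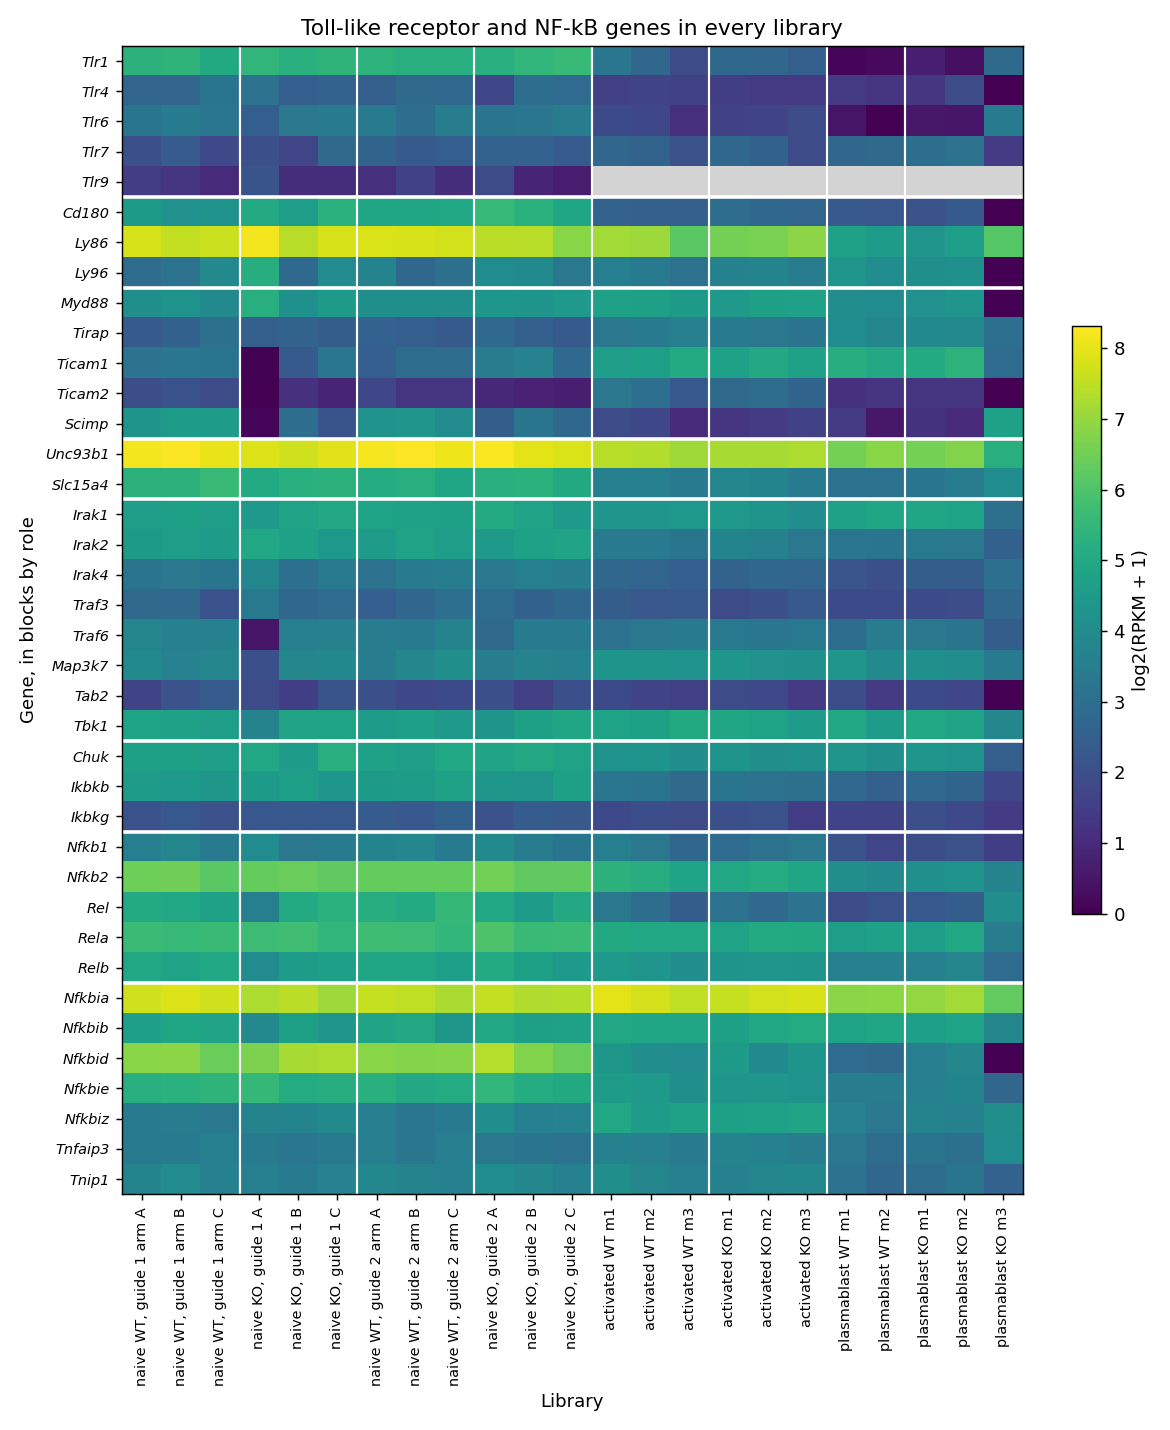
Level of each of the 38 genes (rows, in blocks by role) in each of the 23 libraries (columns, in blocks by group), as log2(RPKM + 1). Grey marks Tlr9, which has no entry in the cultured table. The plasmablast KO library m3, with about 51300 reads, and naive KO guide 1 library A differ from the other libraries of their groups.

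In naive cells the question was whether carrying a guide against Irf8 changed these genes. Of the 38, 2 were lower in KO than in WT over both guides and 0 were higher, by limma's test across all 10137 genes tested at an adjusted p under 0.05. Over all genes the same rule called 0.858% lower and 1.03% higher. Both members called were adaptors, Scimp and Ticam2. The median log2 difference of the 38 genes was -0.05, with 16 positive and 22 negative, and that of all genes was -0.02. Scimp, a transmembrane adaptor of antigen-presenting cells that supports Toll-like receptor signalling, lies at chr11:70790932-70812561. It was at 18.5, 23.3 and 22.4 RPKM in the WT libraries A, B and C of the first arm and at 17.8, 19.2 and 15 in those of the second arm. In KO libraries A, B and C it was at 0.0920, 7.03 and 3.42 RPKM with guide 1 and 4.42, 8.39 and 5.82 with guide 2. Every KO library lay below every WT library in both arms, the highest KO value being 8.39 and the lowest WT value 15. The log2 difference was -2.05 (SE 0.37, adjusted p = 0.0147) with all libraries and -1.64 (SE 0.17, adjusted p = 0.000325) without KO guide 1 library A. With guide 1 alone it was -2.72 (adjusted p = 0.033). With guide 2 alone it was -1.38 and was called (adjusted p = 0.0194) only when KO guide 1 library A was left out of the shared estimate of the spread, since its adjusted p was 1 with all libraries. Scimp is 1 gene of 113 called with guide 1 (1.11% of all genes, any direction) and, with guide 2, 0 of the 38 genes were called beside 0.0296% of all genes.

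Ticam2, also called TRAM, the bridging adaptor that couples internalised Tlr4 to Ticam1, was at 3.01, 3.24 and 2.74 RPKM in WT libraries A, B and C of the first arm and 2.42, 1.35 and 1.45 in the second. KO values were 0, 1.28 and 0.823 RPKM with guide 1 and 0.880, 0.710 and 0.608 with guide 2. Each KO value was under each WT value, although KO guide 1 library B (1.28) was close to WT library B of the second arm (1.35). The log2 difference was -0.98 (SE 0.21, adjusted p = 0.0325), and -0.81 (SE 0.15, adjusted p = 0.0087) without KO guide 1 library A, in which Ticam2 was listed at 0. With all libraries Ticam2 was called with neither guide alone (-1.31, adjusted p = 0.0548, with guide 1 and -0.64 with guide 2). Without that library it was called with guide 1 (-0.97, adjusted p = 0.0401) and not with guide 2 (-0.64, adjusted p = 0.295). Ticam2 was a low gene with 71 to 420 estimated reads in each of the other naive libraries. The Ticam2 call was lost in 11 of 19 alternative analyses, among them the removal of any 1 WT library or any 1 library of KO guide 2, and the Scimp call in 4 of 20 (adjusted p from 0.000194 to 0.107 over all 20). Without WT library A of the first arm, the one with Thy1 at 4.93 RPKM, Scimp was called (-2.10, adjusted p = 0.034) and Ticam2 was not (-0.98, adjusted p = 0.0801), and with guide 1 alone Scimp was not called either (-2.82, adjusted p = 0.0852).

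No other member was called in naive cells. The receptors Tlr1, Tlr4, Tlr6, Tlr7 and Tlr9 had log2 differences between -0.18 and 0.14, and the KO and WT ranges of each overlapped. Tlr1 was at 36.2 to 47.9 RPKM (median 42.6) in the 6 KO libraries and 32.4 to 41.8 RPKM (median 38.4) in the 6 WT libraries. Tlr4, the LPS receptor, was at 2.39 to 7.81 RPKM (median 5.76) in KO and 4.78 to 8.30 RPKM (median 5.92) in WT.

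KO and WT libraries of these receptors were not separated.

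Tlr6 was at 4.60 to 10.4 RPKM (median 8.83) in KO and 7.02 to 10.4 RPKM (median 9.17) in WT. Tlr7 was at 2.34 to 6.37 RPKM (median 4.72) in KO and 2.58 to 5.45 RPKM (median 4.26) in WT. Tlr9 had 0.577 to 3.47 RPKM (median 1.14) in KO and 1.01 to 2.15 RPKM (median 1.33) in WT, the highest value being that of KO guide 1 library A.

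The co-receptor Cd180, also called RP105, which acts in LPS responses together with Ly86, was at 21.9, 17.6 and 18.4 RPKM in WT libraries A, B and C of the first arm and 28.8, 29.2 and 30.8 in the second, and at 33.2, 24.3 and 38.5 in KO of guide 1 and 45.9, 38.7 and 29.3 in KO of guide 2. Every KO library of guide 1 exceeded every WT library of its arm, and with guide 2 the ranges overlapped. The WT libraries of the 2 arms also differed from each other, with 17.6 to 21.9 RPKM in the first and 28.8 to 30.8 in the second. The log2 difference over both guides was 0.50 (SE 0.13, adjusted p = 0.0832), and it was not called.

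Ly86 was at 222, 185 and 197 RPKM in WT libraries A, B and C of the first arm and 225, 224 and 214 in the second, and at 284, 170.2 and 221 in KO of guide 1 and 173, 171 and 113 in KO of guide 2. With guide 2 the KO range lay under the WT range of the arm, with a log2 difference of -0.56 (SE 0.19, adjusted p = 0.828), and with guide 1 the ranges overlapped. Ly96, also called MD-2, which holds LPS for Tlr4, was at 6.60, 7.68 and 14 RPKM and 12.2, 5.94 and 7.30 in the WT libraries of the 2 arms and at 35, 6.22 and 15.2 and 15.5, 14.5 and 9.03 in KO of guides 1 and 2. Its ranges overlapped and its highest value was again that of KO guide 1 library A. In that library, C1qa (13.3 RPKM) and C1qb (10.6), markers of macrophages, were higher than in any other naive library (0 to 2.15 and 0 to 3.39). The summed level of the 8 macrophage and monocyte markers in the table was 6.25 to 33.7 RPKM in KO of guide 1, 7.14 to 9.81 in KO of guide 2, and 5.63 to 15.9 in WT, and its part in the results was not tested.

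Below the adaptors, Nfkbiz, which encodes the nuclear co-activator IkB-zeta, was the only member whose 6 KO libraries all lay above the 6 WT libraries. It was at 9.71, 10.1 and 8.94 RPKM in WT libraries A, B and C of the first arm, 10.8, 8.62 and 10 in WT of the second, 12.1, 12.4 and 14.3 in KO of guide 1 and 15.9, 11.1 and 11.9 in KO of guide 2. The gap was small, from 10.8 in the highest WT to 11.1 in the lowest KO library, and the log2 difference of 0.38 (SE 0.12, adjusted p = 0.156) was not called. Non-overlapping groups were found for 1 member above and 2 below (Scimp and Ticam2), beside 0.957% and 0.927% of all genes.

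Myd88, the adaptor of most Toll-like receptors, was at 16.8 to 37.1 RPKM (median 20.4) in KO and 14.2 to 18.1 RPKM (median 16.6) in WT, with a log2 difference of 0.39 (SE 0.16, adjusted p = 0.299). Its KO and WT ranges overlapped slightly, and the highest value, 37.1, was that of KO guide 1 library A. Ticam1, the adaptor of Tlr3 and Tlr4, had a log2 difference of -1.34 with guide 1 and 0.54 with guide 2, neither called. It was at 0.023 RPKM, which is 1 estimated read, in KO guide 1 library A and 4.11 to 11.8 in the other 5 KO libraries, beside 4.54 to 8.54 in WT. Traf6, a ubiquitin ligase, was likewise at 0.379 RPKM in that library and 6.33 to 11.4 in the other KO libraries, with 9.53 to 12.7 in WT. Without that library the log2 differences over both guides were 0.06 for Ticam1 and -0.20 for Traf6, neither called.

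Among the 5 NF-kB subunit genes, Nfkb1, Nfkb2, Rel, Rela and Relb, the log2 differences ran from -0.35 to 0.07 with 0 called, and the smallest adjusted p was 0.408. The 7 inhibitors ran from -0.26 (Nfkbia) to 0.38 (Nfkbiz), and the 3 IKK genes from -0.05 to 0.15, with 0 called in each group. The difference between the guides was called for 0 of the 38 genes and for 0% of all genes, and 3 of the 38 had an unadjusted p under 0.05 in that test, beside 479 of 10137 genes.

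Without KO guide 1 library A the same 2 members were called lower over both guides and 0 higher, when 1.76% and 2.07% of all genes were.

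**Figure D2:**
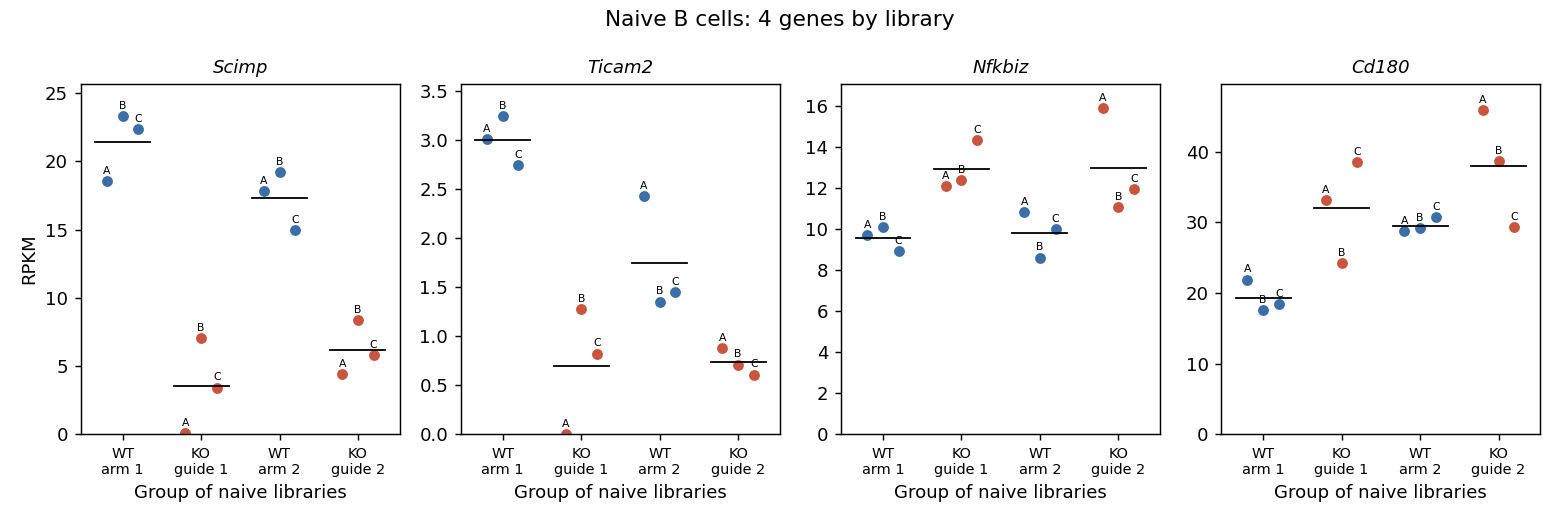
RPKM of Scimp, Ticam2, Nfkbiz and Cd180 in the 12 naive libraries, WT in blue and KO in red, with the library letter beside each point and a line at the mean of each group. Scimp and Ticam2 are lower in every KO library than in every WT library, Nfkbiz is higher in every KO library, and for Cd180 the groups overlap across the arms.

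Other genes of the pathway were taken from 4 lists that hold none of the 38 genes. Of 10 other Toll-like receptors and accessory proteins tested in naive cells, 1 was called higher over both guides and 0 lower. Of 30 other signalling proteins, 2 were higher and 0 lower. Of 17 other negative regulators 0 were called, and of 27 NF-kB target genes tested 3 were higher and 1 lower. Over all genes, 1.03% were called higher and 0.858% lower. The receptor called was Tlr3, the endosomal sensor of double-stranded RNA, at 2.44 to 10.5 RPKM in KO and 0.032 to 3.09 in WT (log2 difference 1.26, SE 0.27, adjusted p = 0.0364). These ranges overlapped.

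The signalling genes were Traf1, an adaptor of the TNF receptor family, at 17.5 to 31.9 RPKM in KO and 4.03 to 15.3 in WT (1.17, SE 0.21, adjusted p = 0.0147), and Nod1, a cytosolic sensor of bacterial cell wall, at 23.5 to 35.8 and 12.9 to 22.4 RPKM (0.61, SE 0.13, adjusted p = 0.0374). Neither gene's KO range overlapped its WT range. The targets were the anti-apoptotic paralogs Bcl2a1b (0.93) and Bcl2a1d (0.92), which are nearly identical and whose reads may be shared, and Ebi3, a cytokine subunit (0.80), all higher, with Cd83, an activation marker, lower (-0.36, SE 0.07, adjusted p = 0.0161). Cd83 was at 94 to 113 RPKM in KO and 124 to 140 in WT, with no overlap.

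Without KO guide 1 library A, 3 more genes of these lists were called higher, the kinase gene Ikbke (0.81), the cytokine gene Lta (0.48) and the stress-response gene Gadd45b (0.73). In that setting 2.07% of all genes were called higher. The median log2 differences of the 4 lists with all libraries were 0.02, 0.03, -0.07 and 0.27, beside -0.02 over all genes. In these sorted bulk samples, fewer cells of a type and less RNA per cell cannot be told apart.

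In activated B cells, 0 of the 37 genes were called between KO and WT, as were 0% of all 9986 genes tested. At an unadjusted p under 0.05 the count was 0 of the 37 genes and 2 of all genes. Without the 3 doubtful libraries, which left 2 WT and 2 KO activated libraries, 0 of the 37 were called beside 0.651% of all genes, and 4 of the 37 had an unadjusted p under 0.05, beside 1193 of 9986 genes. In that analysis Irf8 had a log2 difference of -0.55 (SE 0.15, adjusted p = 0.127), beside -0.16 (SE 0.27, not called) with all libraries. The pair m3 was set aside partly for its Irf8 values, so the value without it is no test of the labels.

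The smallest adjusted p among the members belonged to Ly86. It was at 141, 134 and 71.2 RPKM in the libraries labelled WT m1, m2 and m3, and at 94.8, 99.4 and 114 in those labelled KO m1, m2 and m3. In m1 and m2 both KO libraries lay below both WT libraries, as they did for 11 of the 37 genes and 24.9% of all genes (above for 7 and 24.1%), and in the pair m3 the order was the opposite. The log2 difference was -0.11 (SE 0.44, adjusted p = 1) with all libraries and -0.50 (SE 0.12, adjusted p = 0.0829) without the doubtful ones, and after quantile normalization of the latter Ly86 was called, as the only member.

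Nfkb1, the gene of the p105 precursor of the p50 subunit, showed the same order. It was at 10.9, 8.74 and 5.91 RPKM in the libraries labelled WT and 6.53, 7.60 and 8.87 in those labelled KO, with a log2 difference of -0.42 (SE 0.17, adjusted p = 0.34) without the doubtful libraries. Scimp, called lower in naive KO cells, was at 2.79, 2.47 and 0.972 RPKM in activated libraries labelled WT and 1.47, 1.74 and 2.10 in those labelled KO, a difference of -0.48 (SE 0.24, adjusted p = 0.461) without the doubtful libraries. Ticam2 was at 8.86, 7.29 and 3.93 and 6.34, 6.66 and 5.39 RPKM, a difference of -0.27 (SE 0.15, adjusted p = 0.542). For both adaptors the labelled groups overlapped over all 6 libraries, and they are among the 11 genes whose m1 and m2 KO values lay below the WT values, without being called.

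**Figure D3:**
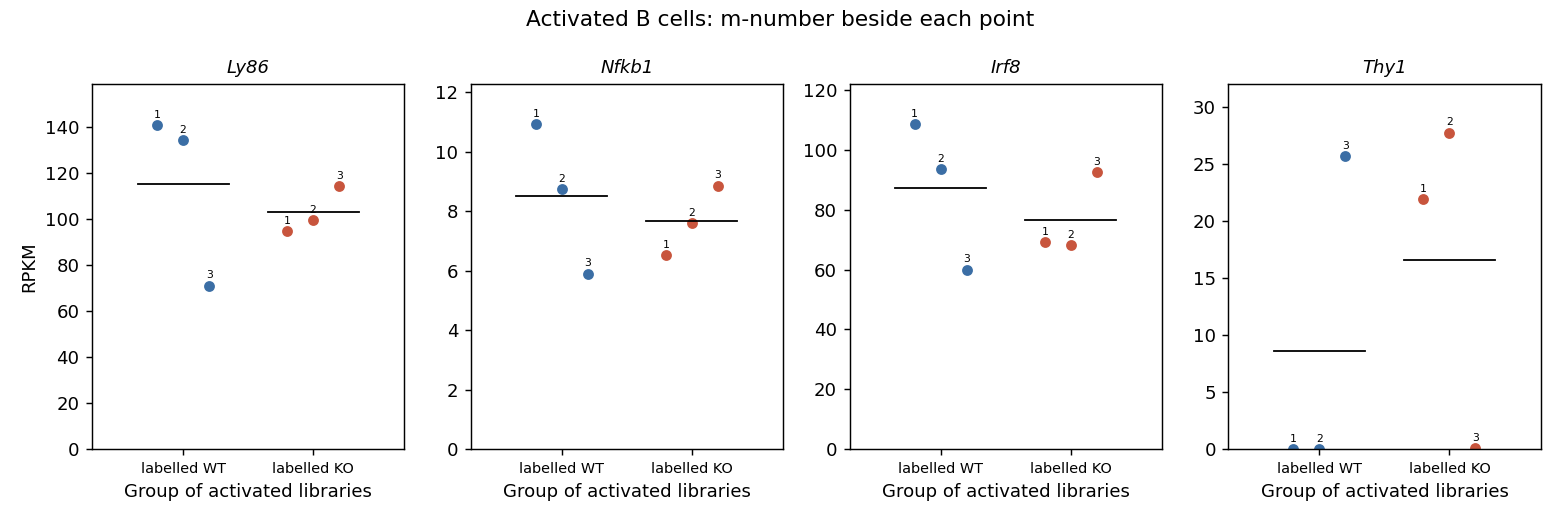
RPKM of Ly86, Nfkb1, Irf8 and Thy1 in the 6 activated B cell libraries, by label (WT or KO), with the m-number beside each point. In the pair m3 the library labelled KO has the lower Thy1 (0.093) and the higher Irf8 (92.4), the opposite of the pairs m1 and m2, and the order of Ly86 and Nfkb1 is also reversed there.

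Other pathway genes called in activated cells without the doubtful libraries were Irf7, an interferon regulatory factor downstream of Tlr7 and Tlr9 (0.92, adjusted p = 0.0106), Dusp1, a phosphatase that restrains MAP kinases (0.79, adjusted p = 0.0418), and Gadd45b (0.46, adjusted p = 0.0482), all higher in KO.

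In plasmablasts, 0 of the 37 genes and 0% of all genes were called between KO and WT with all libraries, while 1 of the 37 and 85 of all genes had an unadjusted p under 0.05. Without the doubtful libraries 0 of the 37 were called beside 0.0701% of all genes, and 3 of the 37 had an unadjusted p under 0.05, beside 596 of 9986 genes. The member with the smallest adjusted p was Nfkbid, at 6.50 and 6.29 RPKM in WT m1 and m2 and 10.7 and 13.4 in KO m1 and m2. The log2 difference was 0.81 (SE 0.18, adjusted p = 0.199). Irf8 itself had a difference of -0.10 (SE 0.15, adjusted p = 0.99) there. Among the other pathway genes Il10, an anti-inflammatory cytokine (1.56, adjusted p = 0.00127), and Bcl2a1b (1.02, adjusted p = 0.0466) were called higher in KO.

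Plasmablasts were compared with activated B cells of the same label. With all libraries, 1 of the 37 genes was called lower in WT and 4 in KO, and 0 were higher in either. The shares of all genes were 1.43% lower and 0.33% higher in WT, and 2.67% lower and 0.771% higher in KO. Nfkbiz was called in WT, with a log2 difference of -1.27 (SE 0.22, adjusted p = 0.0229). In KO the calls were Nfkbiz at -0.96 (SE 0.19, adjusted p = 0.0314), Ticam2 at -1.99 (SE 0.37, adjusted p = 0.0247), Nfkb1 at -1.23 (SE 0.25, adjusted p = 0.0328) and Nfkb2 at -0.95 (SE 0.21, adjusted p = 0.0394). Each call was lost in several of 19 alternatives, most of which left out 1 library. Nfkbiz in WT lost it in 7 (adjusted p up to 0.316), and in KO Nfkbiz lost it in 12 (up to 0.136), Nfkb1 in 9 (up to 0.138), Nfkb2 in 9 (up to 0.181) and Ticam2 in 7 (up to 0.111). Quantile normalization ended both Nfkbiz calls, the replicate block ended those of Nfkbiz and Nfkb1 in KO, and a pseudocount of 0.1 ended that of Ticam2. The median log2 differences of the 37 were -0.44 in WT and -0.50 in KO, beside -0.12 and -0.22 over all genes.

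More members were called once the 3 doubtful libraries were left out. In WT 21 of the 37 genes were then lower and 4 higher, when 30.5% of all genes were lower and 15.4% higher. In KO 20 were lower and 4 higher, when 21.3% and 12% of all genes were. The medians were -0.51 in WT and -0.35 in KO, beside -0.16 and -0.10 over all genes. Leaving out the plasmablast KO library m3 alone gave 21 calls in WT and 20 in KO.

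The balance of higher and lower calls depended on the scaling. Quantile normalization of the same libraries moved the median of all genes to 0.01 in WT and 0.02 in KO, and the share of higher among all calls from 33.5% to 51.6% in WT and from 36% to 52.6% in KO. Of the members, 18 were then lower and 4 higher in WT, and 15 lower and 5 higher in KO. Slc15a4, Ikbkb and Traf3 lost the call of lower in WT. In KO, Irak2, Ikbkb, Myd88, Rel and Nfkbid lost it, and Ticam1 gained a call of higher. With all libraries, quantile normalization moved that share from 18.8% to 42.5% in WT and from 22.4% to 45.1% in KO. Of the 21 genes lower in WT and the 20 lower in KO, 18 were shared, 85.7% of the first and 90% of the second. Of the 4 higher in each, 3 were shared (Tirap, Irak1 and Ly96), 75% of each. Sharing among all genes called was not counted, so these shares have no background and are not read as particular to the 37 genes. Over both labels, the 4 deep plasmablast libraries lay above all 6 activated libraries for 3 of the 37 genes and below them for 18, beside 14.3% and 23.5% of all genes. Up to the comparison with naive cells, the values that follow leave out the 3 doubtful libraries, except that activated ranges cover all 6 libraries.

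Both surface lipopeptide receptors were lower in plasmablasts. Tlr1 was at 2.72 to 8.68 RPKM (median 5.66) in activated cells, and at 0.0910 and 0.150 in WT and 0.628 and 0.275 in KO plasmablasts. All 4 of these plasmablast values lay below all activated values, and the log2 differences were -2.84 (SE 0.20, adjusted p = 2.86e-07) in WT and -2.22 (SE 0.20, adjusted p = 4.07e-06) in KO. Tlr6 was at 1.24 to 2.69 RPKM (median 2.40) in activated cells and at 0.397 and 0 in WT and 0.456 and 0.433 in KO plasmablasts, again with no overlap, and its differences were -1.59 (SE 0.18, adjusted p = 1.38e-05) in WT and -1.15 (SE 0.18, adjusted p = 0.000317) in KO. These genes are the close paralogs named above. Tlr4 was at 1.66 to 2.23 RPKM (median 1.96) in activated cells and at 1.65 and 1.44 in WT and 1.46 and 2.78 in KO plasmablasts, so the groups overlapped, with differences of -0.30 (SE 0.20, adjusted p = 0.238) in WT and 0.12 (SE 0.20, adjusted p = 0.668) in KO, not called. Tlr7 was at 2.84 to 5.78 RPKM (median 5.10) in activated cells and at 5.69 and 6.35 in WT and 7.05 and 7.81 in KO plasmablasts. It was called higher in KO alone, with differences of 0.12 (SE 0.14, adjusted p = 0.509) in WT and 0.40 (SE 0.14, adjusted p = 0.0456) in KO, and the difference between the labels was itself 0.28 (SE 0.20, adjusted p = 0.846).

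Among the co-receptors, Ly86 fell most. It was at 71.2 to 141 RPKM (median 107) in activated cells and at 26 and 22.4 in WT and 19.2 and 24 in KO plasmablasts, with no overlap, and its differences were -2.46 (SE 0.12, adjusted p = 1.67e-08) in WT and -2.13 (SE 0.12, adjusted p = 1.92e-07) in KO. Its partner Cd180 was at 4.66 to 6.83 RPKM (median 5.34) in activated cells and at 4.01 and 3.74 in WT and 3.16 and 4.10 in KO plasmablasts, all 4 below all 6, with differences of -0.30 (SE 0.16, adjusted p = 0.137) in WT and -0.68 (SE 0.16, adjusted p = 0.00505) in KO. Ly96 moved the other way. It was at 7.59 to 12.5 RPKM (median 10.6) in activated cells and at 19.3 and 15.3 in WT and 16.7 and 17.2 in KO plasmablasts, all higher, and its differences were 0.65 (SE 0.13, adjusted p = 0.00115) in WT and 0.46 (SE 0.13, adjusted p = 0.0148) in KO. With all libraries, the KO difference of Ly96 was -0.86 (SE 0.92, adjusted p = 0.562), of the opposite sign, and the plasmablast KO library m3 lists it at 0.

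The adaptors divided. Ticam2 was at 3.93 to 8.86 RPKM (median 6.50) in activated cells and at 1.26 and 1.42 in WT and 1.39 and 1.39 in KO plasmablasts, with no overlap and differences of -1.95 (SE 0.15, adjusted p = 8.51e-07) in WT and -1.65 (SE 0.15, adjusted p = 6.26e-06) in KO. Ticam1, its partner, was at 23.4 to 32.9 RPKM (median 26.2) in activated cells and at 34.9 and 31.5 in WT and 32.8 and 40.5 in KO plasmablasts, where the groups overlapped, and its differences were 0.44 (SE 0.13, adjusted p = 0.0114) in WT and 0.35 (SE 0.13, adjusted p = 0.0506) in KO. Tirap, which brings Myd88 to Tlr4 and Tlr2 at the membrane, was at 8.16 to 11.4 RPKM (median 9.34) in activated cells and at 15.3 and 13.1 in WT and 14.3 and 14 in KO plasmablasts, all higher, with differences of 0.55 (SE 0.13, adjusted p = 0.00322) in WT and 0.55 (SE 0.13, adjusted p = 0.00463) in KO. Myd88 was at 21.8 to 25.9 RPKM (median 25.2) in activated cells and at 15.9 and 14.9 in WT and 17.4 and 19.2 in KO plasmablasts, all lower, and its differences were -0.69 (SE 0.11, adjusted p = 0.000302) in WT and -0.34 (SE 0.11, adjusted p = 0.0331) in KO. Scimp was low in both stages, at 0.972 to 2.79 RPKM (median 1.92) in activated cells and 1.74 and 0.463 in WT and 1.32 and 1 in KO plasmablasts, and was called lower in WT only, with differences of -0.86 (SE 0.24, adjusted p = 0.0105) in WT and -0.27 (SE 0.24, adjusted p = 0.423) in KO. The difference between the labels for Scimp was 0.59 (SE 0.34, adjusted p = 0.781).

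Of the transport proteins, Unc93b1 was at 139 to 170.0 RPKM (median 152) in activated cells and at 94.2 and 112 in WT and 94.5 and 105 in KO plasmablasts, with no overlap and differences of -0.70 (SE 0.11, adjusted p = 0.000299) in WT and -0.57 (SE 0.11, adjusted p = 0.00201) in KO. Slc15a4, an endosomal histidine transporter needed for endosomal receptor signalling, was at 9.42 to 13.5 RPKM (median 11.1) in activated cells and at 7.74 and 7.66 in WT and 8.37 and 10.2 in KO plasmablasts, where 1 KO value lay within the activated range, with differences of -0.48 in WT and -0.45 in KO, both called.

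Of the 8 kinases and ubiquitin ligases, 2 were lower and 1 higher in WT, and 1 lower and 1 higher in KO. Irak1, a kinase recruited by Myd88, was at 16 to 21.8 RPKM (median 19.1) in activated cells and at 25.9 and 28.3 in WT and 28.3 and 27.5 in KO plasmablasts, all higher, with differences of 0.48 (SE 0.11, adjusted p = 0.00324) in WT and 0.45 (SE 0.11, adjusted p = 0.00747) in KO. Irak4, its upstream kinase, and Traf3, a ubiquitin ligase that restrains non-canonical NF-kB signalling, were called lower in WT alone. Irak4 was at 4.54 to 6.02 RPKM (median 5.53) in activated cells and at 3.58 and 3.12 in WT and 4.41 and 4.46 in KO plasmablasts, with differences of -0.64 in WT and -0.29 in KO. Traf3 was at 2.82 to 4.50 RPKM (median 3.86) in activated cells and at 2.61 and 2.65 in WT and 2.62 and 2.91 in KO plasmablasts, with differences of -0.50 in WT and -0.07 in KO. The stages did not overlap for Irak4 and did for Traf3. Irak2, a later-acting kinase of the same complex, was called lower in KO alone, at 8.38 to 12.4 RPKM (median 9.80) in activated cells and 8.65 and 8.28 in WT and 9.15 and 9.15 in KO plasmablasts, with overlap and differences of -0.19 in WT and -0.35 in KO. For these 3 genes the difference between the labels was not called (adjusted p from 0.695 to 0.91). Traf6, Map3k7, Tab2 and Tbk1 had differences between -0.16 and 0.05 and none was called.

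Of the IKK complex, the catalytic subunit gene Ikbkb was called lower in both labels, but in neither after quantile normalization of the same libraries. It was at 6.32 to 8.52 RPKM (median 7.98) in activated cells and at 6.24 and 4.87 in WT and 6.08 and 5.37 in KO plasmablasts, with no overlap and differences of -0.52 in WT and -0.44 in KO, while Chuk (-0.05 in WT and 0.09 in KO) and the regulatory subunit gene Ikbkg (-0.23 in WT and -0.13 in KO) were not called. Ikbkg overlaps G6pdx over 19398 bases, and the use of strand in the counting is not given in the sources used here.

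Of the 5 NF-kB subunit genes, 4 were lower in both labels, although Rel lost its KO call after quantile normalization. Nfkb1 was at 5.91 to 10.9 RPKM (median 8.17) in activated cells and at 3.40 and 2.36 in WT and 3.02 and 3.22 in KO plasmablasts, with no overlap, and its differences were -1.49 (SE 0.17, adjusted p = 1.88e-05) in WT and -0.97 (SE 0.17, adjusted p = 0.00095) in KO. Nfkb2 was at 27.1 to 39.1 RPKM (median 32.3) in activated cells and at 16.2 and 14.9 in WT and 17.2 and 18.1 in KO plasmablasts, with no overlap, and its differences were -1.21 (SE 0.11, adjusted p = 3.09e-06) in WT and -0.84 (SE 0.11, adjusted p = 0.000118) in KO. Rel, the gene of c-Rel, was at 4.42 to 9.03 RPKM (median 7.32) in activated cells and at 2.70 and 3.31 in WT and 3.90 and 4.48 in KO plasmablasts. A KO plasmablast value (4.48) just exceeded the lowest activated one (4.42), and the differences were -1.17 (SE 0.17, adjusted p = 0.000106) in WT and -0.60 (SE 0.17, adjusted p = 0.0148) in KO. Relb, the partner of the processed Nfkb2 product, was at 15.7 to 21.4 RPKM (median 18.9) in activated cells and at 11.6 and 11.7 in WT and 11.4 and 12.8 in KO plasmablasts, with no overlap and differences of -0.75 in WT and -0.61 in KO. Rela, the gene of p65, was at 26.4 to 33.2 RPKM (median 31.3) in activated cells and at 24.3 and 26 in WT and 24.1 and 30.4 in KO plasmablasts. These overlapped, and its differences were -0.31 (SE 0.13, adjusted p = 0.0733) in WT and -0.12 (SE 0.13, adjusted p = 0.512) in KO, not called.

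Of the 7 inhibitors, 6 were lower in both labels, although Nfkbid lost its KO call after quantile normalization. Nfkbia was at 182 to 252 RPKM (median 214) in activated cells and at 116 and 118 in WT and 124 and 141 in KO plasmablasts, with no overlap, and its differences were -0.99 (SE 0.12, adjusted p = 2.58e-05) in WT and -0.59 (SE 0.12, adjusted p = 0.0022) in KO. Nfkbie, the gene of IkB-epsilon, was at 16.6 to 23.2 RPKM (median 20) in activated cells and at 10.2 and 10.3 in WT and 11.3 and 12.3 in KO plasmablasts, with no overlap, and its differences were -1.06 (SE 0.11, adjusted p = 7.61e-06) in WT and -0.72 (SE 0.11, adjusted p = 0.000312) in KO. Nfkbiz was at 23.2 to 30 RPKM (median 26) in activated cells and at 11.9 and 8.81 in WT and 12.2 and 11.5 in KO plasmablasts, with no overlap, and its differences were -1.28 (SE 0.15, adjusted p = 1.85e-05) in WT and -1.06 (SE 0.15, adjusted p = 0.000155) in KO.

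The promoters shown above are those of Nfkbia, Nfkbie and Tnip1, an adaptor of the deubiquitinase Tnfaip3. Tnip1 was at 10.9 to 16.5 RPKM (median 12.9) in activated cells and at 8.05 and 5.85 in WT and 6.64 and 8.32 in KO plasmablasts, with differences of -0.98 in WT and -0.67 in KO. Tnfaip3 was at 9.72 to 12.1 RPKM (median 11.4) in activated cells and at 8.79 and 6.73 in WT and 8.12 and 7.36 in KO plasmablasts, with differences of -0.51 in WT and -0.56 in KO. Nfkbid was at 14.6 to 22 RPKM (median 17.2) in activated cells and at 6.50 and 6.29 in WT and 10.7 and 13.4 in KO plasmablasts, with differences of -1.35 in WT and -0.54 in KO. All 3 were called in both labels and none overlapped. Nfkbib, the gene of IkB-beta, was the inhibitor that was not called, at 25.6 to 33.4 RPKM (median 29.8) in activated cells and 27.1 and 29 in WT and 25.1 and 27 in KO plasmablasts, with differences of -0.09 in WT and -0.11 in KO.

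The difference between KO and WT in this step was called for 0 of the 37 genes and 0% of all genes with all libraries, and 10 of all genes had an unadjusted p under 0.05. Without the doubtful libraries it was called for 0 of the 37, of which 7 had an unadjusted p under 0.05, beside 3 genes called and 757 of 9986 genes with an unadjusted p under 0.05, and the smallest adjusted p was that of Nfkbid, with a difference of 0.80 (SE 0.25, adjusted p = 0.42).

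**Figure D4:**
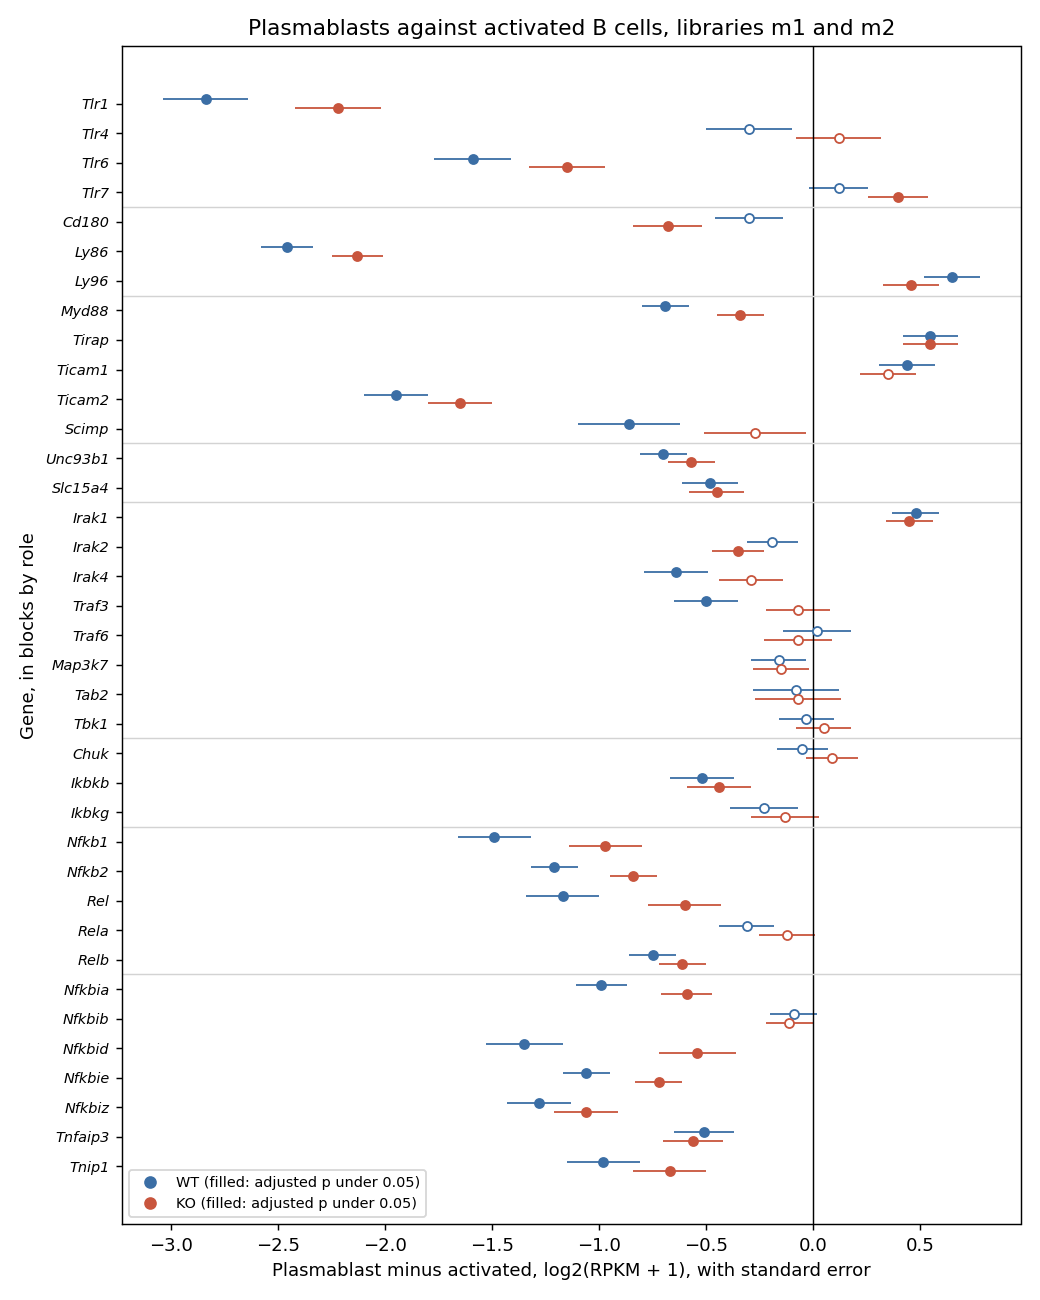
Log2 difference (plasmablast minus activated B cell, log2(RPKM + 1) scale) with its standard error for each of the 37 genes in WT and KO, from the m1 and m2 libraries. Filled points have an adjusted p under 0.05. Tlr1, Ly86 and Ticam2 lie farthest below 0 in both labels, and Ly96, Tirap and Irak1 are filled above 0 in both.

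The 4 lists of other pathway genes were counted in the same step, without the doubtful libraries. Over all genes, 30.5% were called lower and 15.4% higher in WT, and 21.3% lower and 12% higher in KO. Of 9 other receptors and accessory proteins tested, 3 were higher and 2 lower in both WT and KO. Lower were Cnpy3, a chaperone of Toll-like receptors (-2.42 in WT and -1.36 in KO), and Tlr12, a receptor of profilin (-1.06 and -0.96). Higher were, among others, the endoplasmic reticulum chaperone gene Hsp90b1 (1.42 and 0.81) and the lysosomal protease gene Ctsb (1.08 and 0.69), 2 of the 3 called.

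Of 30 other signalling proteins, 3 were higher and 16 lower in WT, and 1 higher and 15 lower in KO. They included Pik3ap1, a signalling adaptor of B cells (-1.79 and -1.17), and Irak3, an inhibitory kinase family member (-1.34 and -1.58).

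Of 18 other negative regulators, 2 were higher and 7 lower in WT, and 2 higher and 6 lower in KO. Tnfaip8l2 was the lowest (-4.19 and -3.26), while Dusp1 (1.31 and 1.03) and Tnip2 (0.91 and 0.96) were higher. Of 33 NF-kB target genes, 5 were higher and 20 lower in WT, and 3 higher and 14 lower in KO. The chemokine receptor gene Ccr7 (-5.19 and -4.23), Bcl2a1b (-3.89 and -2.66) and Cd83 (-3.54 and -2.56) were lower, and Gadd45b (1.29 and 0.94) and Il10 (0.58 and 1.54), both named after their values were seen, were higher.

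Naive and cultured cells stood in separately made tables, so their levels are set side by side with no test. The activated WT means cover all 3 libraries with that label, among them the doubtful library m3. The ratios and counts were not repeated without it. The mean WT level in activated cells was at least 2 times the naive mean for 3 of the 37 genes, Ticam1, Ticam2 and Nfkbiz, beside 13.8% of all genes in both tables, and at most 0.5 times for 11, beside 13.4%. The median ratio was 0.704 for the 37 genes and 0.966 for all 9387 genes. Those 11 were Tlr1, Tlr4, Tlr6, Cd180, Scimp, Slc15a4, Irak2, Ikbkb, Nfkb2, Rel and Nfkbid. Scimp had the lowest ratio, 0.107, from 19.4 RPKM in naive to 2.08 in activated WT cells, and Ticam1 the highest, 3.77, from 7.18 to 27.1 RPKM.

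The mean WT plasmablast level was at least 2 times the naive mean for 2 genes, Tirap and Ticam1, beside 15.4% of all genes, and at most 0.5 times for 18, beside 23%. The median ratio was 0.518 for the 37 genes and 0.858 for all genes. Tlr1 went from 37.9 RPKM in naive to 5.69 in activated and 0.12 in plasmablast WT cells, while Tlr7 was at 4.04, 4.68 and 6.02 RPKM. Nfkbiz was at 9.71 RPKM in naive cells, 26.3 in activated cells and 10.4 in plasmablasts.

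Ratios within a library compare partners without the separate scaling of the tables. Ly86 over Cd180, per length, was 3.77 to 10.7 in 11 naive libraries (without KO guide 1 library A, which stood apart), 13.9 to 27.6 in the 6 activated ones and 5.84 to 6.48 in the 4 deep plasmablast libraries. Activated libraries did not overlap the others. Ticam1 over Ticam2 was 1.87 to 16.6 in naive, 2.65 to 8.39 in activated and 22.2 to 29.3 in plasmablast libraries, which were the highest. Ly96 over Tlr4 was 0.929 to 6.47, 3.71 to 7.42 and 6.16 to 11.7 in the same order, and Nfkb2 over Nfkb1 was 5.93 to 9.39, 3.27 to 4.59 and 4.77 to 6.3. By label, naive Ticam1 over Ticam2 was 1.87 to 4.88 in WT and 3.22 to 16.6 in KO without guide 1 library A. Naive Ly86 over Cd180 was 10.1 to 10.7 in WT and 5.73 to 8.57 in KO of the guide 1 arm, library A included. In the guide 2 arm it was 6.94 to 7.84 in WT and 3.77 to 4.41 in KO. Naive KO and WT overlapped for Ly96 over Tlr4 and for Nfkb2 over Nfkb1. These splits were not tested. In KO guide 1 library A the ratios were 8.57 for Ly86 over Cd180, 4.48 for Ly96 over Tlr4 and 5.29 for Nfkb2 over Nfkb1, the last below the other naive libraries, and Ticam2 was listed at 0.

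**Figure D5:**
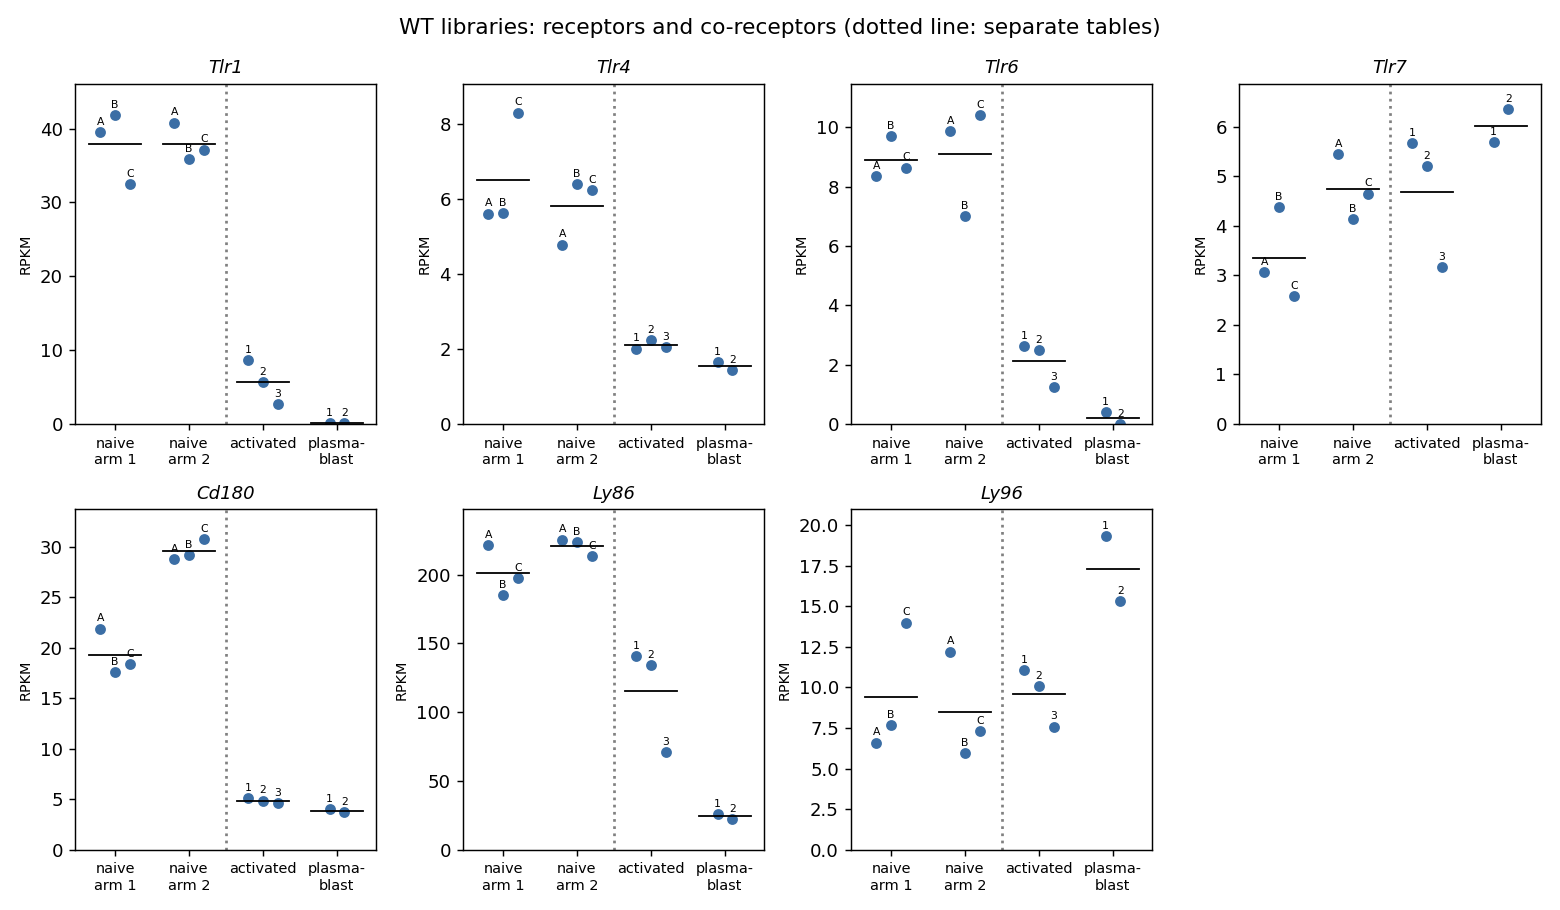
RPKM of 7 receptors and co-receptors in WT libraries of the 2 naive arms, activated B cells and plasmablasts, with a line at each group's mean. The activated group includes the doubtful library labelled WT m3. A dotted line separates the naive from the cultured table, which were made separately. Tlr1 and Tlr6 are lowest in plasmablasts, and Ly96 and Tlr7 have their highest cultured levels there.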

How the data were processed

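RNA of sorted mouse B cells was measured by RNA sequencing of polyadenylated RNA with SMART-seq v4 and Nextera XT kits, per the labels' protocols. The authors deposited RPKM values per gene in 2 tables, 1 for naive and 1 for cultured cells. STAR and mm10 are named in the submitters' processing notes, and versions, the counting tool and the use of strand are not given in the sources used here. Of the gene symbols, 16 per table had been turned into dates and were restored by gene identifier.

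Values were taken as log2(RPKM + 1), and genes with RPKM of at least 1 in at least 2 libraries were tested with limma 3.58.1 in R 4.3.3, within each table, with Benjamini-Hochberg adjustment over all genes tested and a threshold of 0.05. A log2 difference on this scale understates the change of low genes. The script was tested on simulated data in which all libraries shared a spread for each gene, estimated without the doubtful libraries. That setting lacks shallow or outlying libraries, so it does not show how the tests behave with them. The members and the lists were chosen with earlier results of these data known. Of the 38 genes, receptors, co-receptors, called genes and genes with a log2 difference of at least 1 were given with their values, and of each other list the called genes named were among the 4 with the largest absolute differences per comparison, except where said. Library letters and numbers were not treated as pairs, since the sources used here do not say that they mark pairs. Deviations of same-numbered libraries from their group means had correlations of -0.243 to 0.254, over 0.1 in 2 of 21 pairs. With groups of 2 or 3 libraries, doubtful ones included, these correlations cannot show that pairing is absent. Alternatives were another pseudocount, no filter, a stricter filter, quantile normalization, a replicate block and leaving out each library. The analyses that left out doubtful libraries together with a block or quantile normalization were chosen after seeing the data. Naive KO guide 1 library A, the activated pair m3 and the plasmablast KO library m3 were the doubtful ones. Estimated reads per library came from the smallest steps between values.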

Additional observations from a re-analysis of the deposited data

How the results depend on the processing

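Whether the letters and numbers of libraries mark pairs is not given in the sources used here, and the libraries were not treated as paired, so the replicate block is an alternative only. In naive cells over both guides the members called were 2, and 0 with a pseudocount of 0.1, 1 with RPKM of at least 5 in at least 3 libraries, 1 with the replicate block and 0 to 3 on leaving out 1 library. With guide 1 they were 1, and 0 with a pseudocount of 0.1, 2 with quantile normalization, 2 without KO guide 1 library A with or without quantile normalization, and 0 to 4 on leaving out 1 library. With guide 2 they were 0, and 1 without that library, alone, with the block or with quantile normalization, and 0 to 1 on leaving out 1 library. The difference between guides, both KO against WT comparisons of cultured cells and the KO minus WT difference of the plasmablast step gave 0 to 0 on leaving out 1 library, and activated KO against WT gave 1 without the 3 doubtful libraries and with quantile normalization. For WT plasmablasts against activated cells the count was 1, and 2 with the stricter filter, 5 with quantile normalization, 3 with the replicate block, 25 without the doubtful libraries, 26 with the block added, 22 with quantile normalization added, and 0 to 21 on leaving out 1 library. For KO it was 4, and 2 with the block, 24 without the doubtful libraries, 25 with the block added, 20 with quantile normalization added, and 0 to 20 on leaving out 1 library. Of 1025 alternatives of 54 named member results, 765 kept direction and side of the threshold, 67 lost and 172 gained the call, and 21 reversed, all in KO plasmablasts against activated cells. On leaving out 1 library the log2 difference ran from -1.22 to 0.21 for Tlr6, from -0.21 to 0.65 for Tlr7, from -1.56 to 0.53 for Ly96, from -0.33 to 0.09 for Slc15a4, from -0.34 to 0.55 for Irak1 and from -0.66 to 0.22 for Rel. With quantile normalization Slc15a4 was 0.16, Irak1 0.06, Rel 0.18 and Tnfaip3 0.07. Without the doubtful libraries Ly96 was 0.46 and Irak1 0.45, the same values with the block added, and 0.57 and 0.51 with quantile normalization added. The cause was not tested. The plasmablast KO library m3, with about 51300 reads, limits what can be said of any low gene there.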
